A study of Mus musculus with 6 samples.

Results

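Osteoclasts resorb bone, and the signals they pass to the bone-forming osteoblasts are known as coupling factors. The 10 coupling factor genes described here were chosen from general knowledge, but with earlier results of these data known. All are genes for secreted or surface factors through which osteoclasts act on osteoblasts, or for an enzyme that makes one. They were Sphk1, Sema4d, Efnb2, Cthrc1, Pdgfb, Slit3, Wnt10b, Bmp6, Lif and Ctf1. All 10 were among the 19930 genes that the Affymetrix Mouse Gene 1.0 ST array measured with a feature, that is a set of probes, annotated to 1 gene symbol. Where a gene had more than 1 such feature, the one with the highest mean log2 value over the 6 arrays stood for it, which mattered for Sema4d alone.

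H10 cells, which fuse into multinucleated osteoclasts, were compared with C8 cells, which do not fuse, on 3 arrays each. Both lines were derived from RAW264.7 mouse macrophages carrying Lifeact-mEGFP, an actin label delivered by a retrovirus with puromycin resistance, and were picked by limiting dilution. Every culture had received soluble recombinant RANKL (sRANKL), the cytokine that drives osteoclast formation, at 60 ng/mL for 2 days, so no value here separates an effect of sRANKL from the state of the line. Each phenotype rests on 1 line, and differences between the lines cannot be tied to fusion apart from anything else in which they differ.

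Some coupling factors are held to promote bone formation. Sphingosine kinase 1 makes the lipid sphingosine 1-phosphate (S1P), PDGF-BB recruits osteoblast progenitors, and SLIT3, WNT10B, BMP6, CTHRC1, LIF and cardiotrophin-1 (encoded by Ctf1) act on cells of the osteoblast lineage. Ephrin-B2 sits in the osteoclast membrane and signals in both directions when it binds EphB4 on osteoblasts. Semaphorin 4D, encoded by Sema4d, is the best known factor that holds osteoblasts back, through the receptor Plexin-B1.

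Values are log2 expression values that the authors normalized with RMA, and differences are H10 minus C8 on the log2 scale. Each of the 35545 features was tested with limma (two-sided), the p-values were adjusted over all of them by the Benjamini-Hochberg method, and "rose" or "fell" is written only at an adjusted p under 0.05. The array medians were 7.69 to 7.72 in H10, against 7.65 to 7.74 in C8 cells. Whether the 3 arrays of each line represent separate cultures is not stated, so p-values reflect only the spread among arrays and that spread may be technical. An exact permutation of 3 against 3 arrays cannot give a p below 0.1. As bulk RNA was measured, more cells expressing a gene and more RNA per cell cannot be told apart.

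Of 12 osteoclast markers, 7 rose in H10 cells, 0 fell (0 also at an unadjusted p under 0.05) and 5 did not pass. The paper had already reported several of these rises from the same arrays, so they are no independent check of the label of H10 as the osteoclast-forming line. The mean log2 value of the 12 markers was 11.37 to 11.51 on the H10 arrays, against 10.27 to 10.55 on the C8 arrays. Ctsk, the collagen-degrading cathepsin K, was among those that rose. Of the 5 that did not pass, Mmp9 and Car2 were lower in H10 cells. Their log2 fold changes were -0.34 (limma adjusted p = 0.534) and -0.2 (adjusted p = 0.425), and Car2 did not overlap between the lines. Nfatc1 and Itgb3 showed 0.14 and 0.06 (adjusted p = 0.808 and 0.854). Calcr, the calcitonin receptor, had 6.93 in H10, against 6.86 in C8 cells (limma adjusted p = 0.802). Of 10 macrophage markers measured, 1 rose, Adgre1, which encodes F4/80, and 0 fell (3 were higher and 1 lower at an unadjusted p under 0.05). Many coupling factors are also made by stromal cells. Of 15 osteoblast, stromal and fibroblast markers measured, 0 rose and 0 fell, and the mean log2 value of the 15 was 7.05 to 7.11 on the H10 arrays, against 6.95 to 7.10 on the C8 arrays. At an unadjusted p under 0.05, 1 of the 15 was higher and 1 lower. The one stromal marker with a large difference was Dcn, the matrix protein decorin, at 8.46, 7.19 and 7.74 in H10, against 6.5, 6.21 and 6.25 in C8 cells (limma adjusted p = 0.074), and its part in the results below was not tested.

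Among the 10 coupling factor genes, 1 rose in H10 cells, Sema4d, and 0 fell. Over all 19930 genes, 1.85% rose and 1.04% fell. At an unadjusted p under 0.05, 4 of the 10 were higher (Sema4d, Lif, Pdgfb and Sphk1) and 1 was lower (Bmp6), against 13.8% of all genes in either direction. The same 5 genes were those for which the H10 and C8 arrays did not overlap. The H10 arrays lay above all C8 arrays for 4 of the 10, as they did for 7.74% of all genes, and below them for 1 of the 10, as for 12.7% of all genes. The median log2 fold change of the 10 was 0.03, beside -0.03 over all genes.

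**Figure D1:**
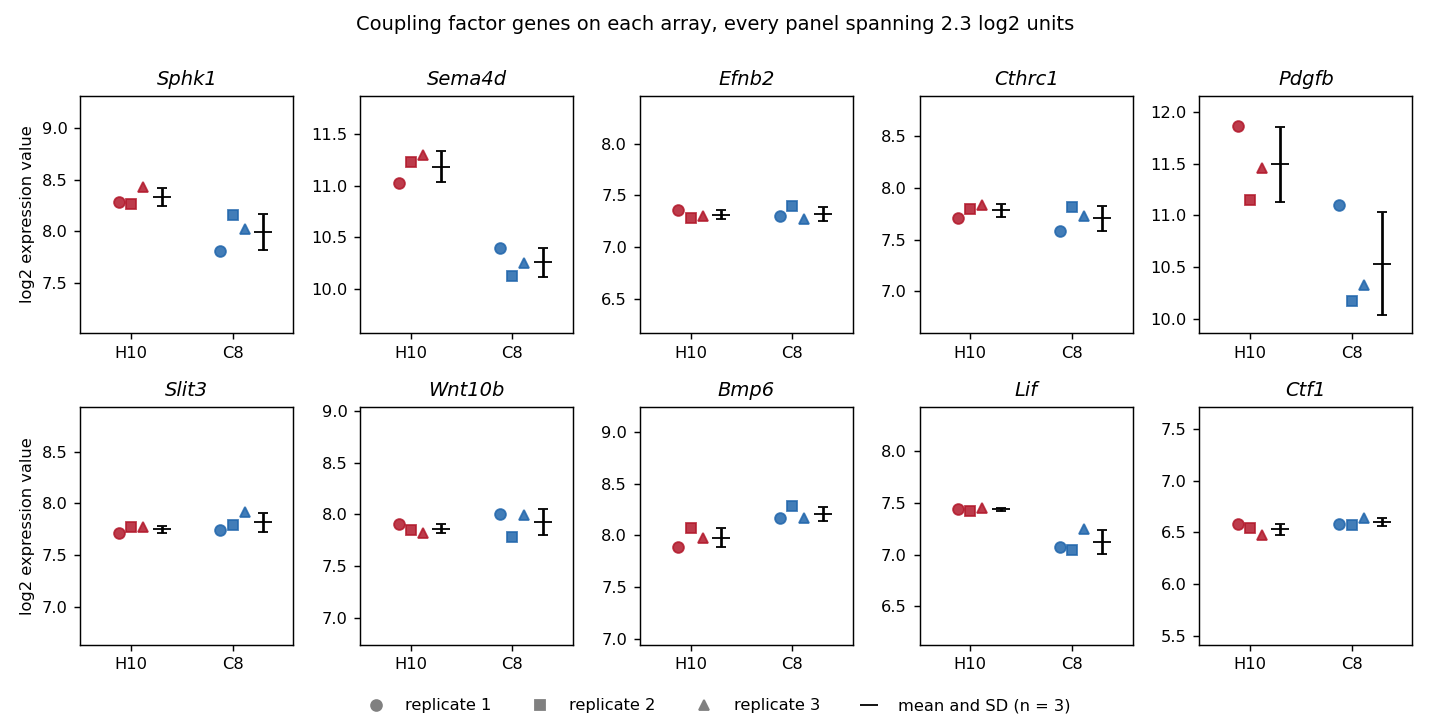
Log2 expression value of each coupling factor gene on the 3 H10 arrays (red, left) and the 3 C8 arrays (blue, right), each line with its mean and SD in black (n = 3). The panels all span the same number of log2 units; Sema4d and Pdgfb show the widest differences in mean, the arrays of Pdgfb lie only 0.05 apart at their closest, and the replicate 1 array is the highest of its line for Pdgfb in both lines.

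Sema4d was the factor whose rise passed the test. Its values were 11.02, 11.23 and 11.30 on the H10 arrays, against 10.40, 10.12 and 10.25 on the C8 arrays. The lowest H10 array lay 0.62 above the highest C8 array, a gap wider than the SD within either line (0.15 in H10, against 0.14 in C8 cells, n = 3 each). Expression was 1.90-fold higher in H10 cells, with a 95% interval of 1.6 to 2.26 (log2 fold change 0.93 with an SE of 0.11, limma adjusted p = 0.00974). Leaving out 1 array at a time, the log2 fold change was 0.86 to 1.01, but the adjusted p was above 0.05 without H10 replicate 2 (0.0527), H10 replicate 3 (0.0545) or C8 replicate 3 (0.0547).

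A second, dimmer feature annotated to Sema4d did not show this difference. It read 8.18, 8.20 and 8.17 in H10, against 8.16, 8.20 and 8.31 in C8 cells, so that the lines overlapped (log2 fold change -0.04, 95% interval -0.19 to 0.11, limma adjusted p = 0.908). The annotation ties the brighter feature to several Sema4d transcripts and the dimmer one to a single predicted transcript. Averaging both features gave a log2 fold change of 0.44 (limma adjusted p = 0.0322), less than the brighter feature alone. The difference between the features was not tested.

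Because Sema4d was the gene that rose, the RefSeq windows before its annotated starts are shown, as 250 bases upstream of each of 3 starts on the minus strand of GRCm38.p6, 5′ to 3′ on the strand of the gene. The capitals mark matches, on either strand, to GGAAA, the core letters bound by NFAT factors such as NFATc1 (TTTCC when it lies on the other strand). They also mark matches to TGANTCA, where N is any base, a looser form of the letters bound by AP-1 factors such as c-Fos.
Sema4d, chr13:51756684-51756933: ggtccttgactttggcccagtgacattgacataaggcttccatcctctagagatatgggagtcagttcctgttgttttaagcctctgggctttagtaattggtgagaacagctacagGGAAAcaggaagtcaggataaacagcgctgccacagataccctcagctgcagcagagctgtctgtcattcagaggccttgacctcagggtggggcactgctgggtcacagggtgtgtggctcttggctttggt
Sema4d, chr13:51748811-51749060: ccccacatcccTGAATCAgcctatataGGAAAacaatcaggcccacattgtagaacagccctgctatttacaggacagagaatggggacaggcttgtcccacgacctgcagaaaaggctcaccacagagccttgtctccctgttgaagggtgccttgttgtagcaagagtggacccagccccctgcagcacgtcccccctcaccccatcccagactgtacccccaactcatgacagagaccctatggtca
Sema4d, chr13:51739447-51739696: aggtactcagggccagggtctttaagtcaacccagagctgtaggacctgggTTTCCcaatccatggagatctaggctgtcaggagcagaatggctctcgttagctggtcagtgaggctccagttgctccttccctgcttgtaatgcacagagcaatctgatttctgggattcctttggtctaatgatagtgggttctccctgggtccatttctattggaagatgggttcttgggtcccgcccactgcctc
Each window held 1 match to GGAAA, and the window at chr13:51748811-51749060 also held 1 match to TGANTCA, which read TGAATCA. Of all 32851 RefSeq windows of this length, 55.6% held GGAAA and 6.75% held TGANTCA, so the shorter motif is in most windows. The table had a window for 8 of the 10 coupling factor genes (Sphk1, with 5, has windows that overlap each other). Cthrc1 and Pdgfb had none. GGAAA was found in 10 of the 14 windows and TGANTCA in 4 of the 14, which include Sphk1 windows that overlap each other. By gene, GGAAA was found in windows of 4, Sema4d, Sphk1, Lif and Ctf1, and TGANTCA in windows of 3, Sema4d, Sphk1 and Lif. A gene with several windows has more chances of a match, so these counts of genes do not compare with the shares of windows. A match describes the letters and is not evidence of binding, and which start these cells use was not measured.

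Pdgfb, which encodes the B chain of platelet-derived growth factor, had the widest difference in mean but also the widest spread. Its log2 values were 11.87, 11.15 and 11.46 on the H10 arrays, against 11.10, 10.17 and 10.33 on the C8 arrays. The lowest H10 array was 0.05 above the highest C8 array, far less than the SD within each line (0.36 in H10, against 0.50 in C8 cells, n = 3 each). The fold was 1.95 with a 95% interval of 1.22 to 3.11, and the difference did not pass (log2 fold change 0.96 with an SE of 0.28, limma adjusted p = 0.214). In both lines the replicate 1 array was the highest. Without C8 replicate 1 the log2 fold change was 1.24, and the adjusted p of 0.0732 was still above the threshold.

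Lif and Ctf1 encode cytokines of the interleukin-6 family, which signal through the shared receptor chain gp130. Lif read 7.44, 7.42 and 7.45 in H10, against 7.07, 7.04 and 7.25 in C8 cells, with no overlap and a gap of 0.17. The difference was 1.25-fold, with a 95% interval of 1.10 to 1.41, and did not pass (log2 fold change 0.32 with an SE of 0.07, limma adjusted p = 0.115). All its values lay under the array medians, and without a measure of background the difference in RNA cannot be sized. Ctf1 gave 6.58, 6.54 and 6.47 in H10, against 6.58, 6.57 and 6.64 in C8 cells, values that overlapped at their ends. Its 95% interval for the array signal, -0.21 to 0.08 on the log2 scale, holds no fold over 1.06 upward (limma adjusted p = 0.8). Ctf1 too lay under the array medians, and how closely this interval bounds the difference in RNA is not known.

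Sphk1, the kinase that makes S1P, read 8.29, 8.27 and 8.43 in H10, against 7.81, 8.16 and 8.02 in C8 cells. The H10 arrays were all higher, by a gap of 0.11, which is less than the SD of the C8 arrays (0.18, n = 3). The fold was 1.26 with a 95% interval of 1.06 to 1.5, and the difference did not pass (log2 fold change 0.33, limma adjusted p = 0.242).

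Bmp6, a bone morphogenetic protein, was the gene whose H10 arrays were all lower than the C8 arrays. Its values were 7.89, 8.07 and 7.98 in H10, against 8.17, 8.29 and 8.17 in C8 cells, a gap of 0.10. H10 cells had 0.853 times the C8 level (95% interval 0.754 to 0.964, log2 fold change -0.23), and this did not pass either (limma adjusted p = 0.261).

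The other 4 genes, Efnb2, Cthrc1, Slit3 and Wnt10b, overlapped between the lines. Efnb2, the gene of ephrin-B2, was 7.28 to 7.36 in H10, against 7.27 to 7.40 in C8 cells. Its log2 fold change was -0.01 with a 95% interval of -0.16 to 0.14. Cthrc1, a secreted protein that is induced in resorbing osteoclasts, was 7.71 to 7.84 in H10, against 7.58 to 7.82 in C8 cells, with a log2 fold change of 0.07 (95% interval -0.12 to 0.27). These 2 genes lay near or under the array medians.

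Slit3, a ligand of Robo receptors, was 7.71 to 7.77 in H10, against 7.74 to 7.92 in C8 cells (log2 fold change -0.07, 95% interval -0.23 to 0.10). Wnt10b, a ligand of canonical Wnt signalling, was 7.82 to 7.91 in H10, against 7.78 to 8.00 in C8 cells (log2 fold change -0.06, 95% interval -0.25 to 0.13). The adjusted p of the 4 genes was 0.831 to 0.981 by limma. These intervals are for the array signal, and how closely they bound the difference in RNA at such levels is not known.

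**Figure D2:**
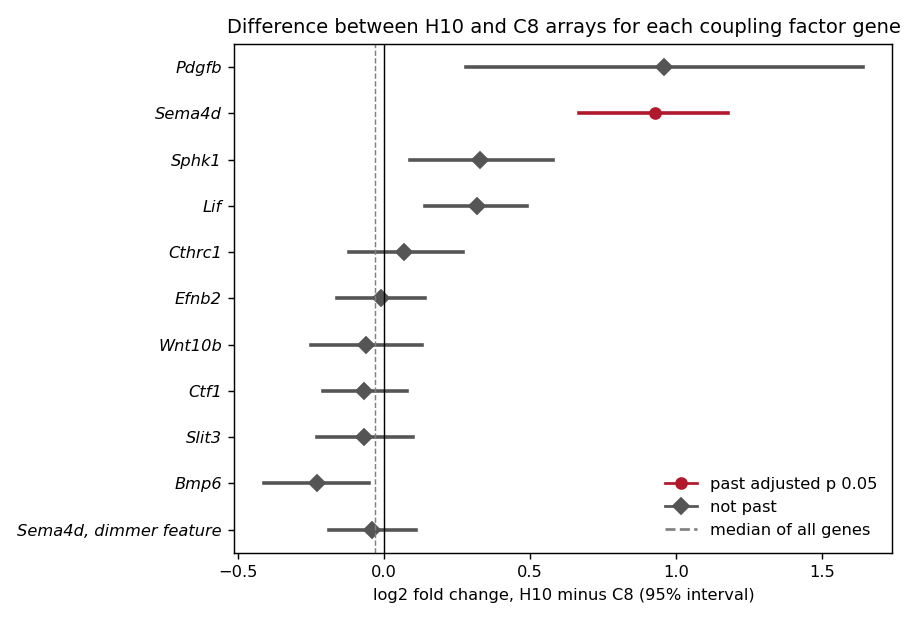
Log2 fold change, H10 minus C8, of each coupling factor gene and of the dimmer Sema4d feature, with its 95% interval from limma; the dashed line is the median of all genes (-0.03). Sema4d (0.93) passed the test, Pdgfb (0.96) has the widest interval, and the intervals of Cthrc1, Efnb2, Wnt10b, Ctf1 and Slit3 span 0.

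Around these factors, 15 lists of partners held 214 measured genes of 224 listed. Of the 214, 4 rose, 5 fell and 205 did not pass, which is 4.21% called beside 2.9% of all genes. Their median log2 fold change, -0.03, was that of all genes. The medians of the 15 lists lay between -0.10 and 0.06 on the log2 scale. No listed ephrin, S1P receptor, Slit, Robo, Wnt ligand, Wnt receptor, BMP ligand or interleukin-6 family gene passed (5 higher and 7 lower at an unadjusted p under 0.05 among the 111 genes of these 8 lists).

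**Figure D3:**
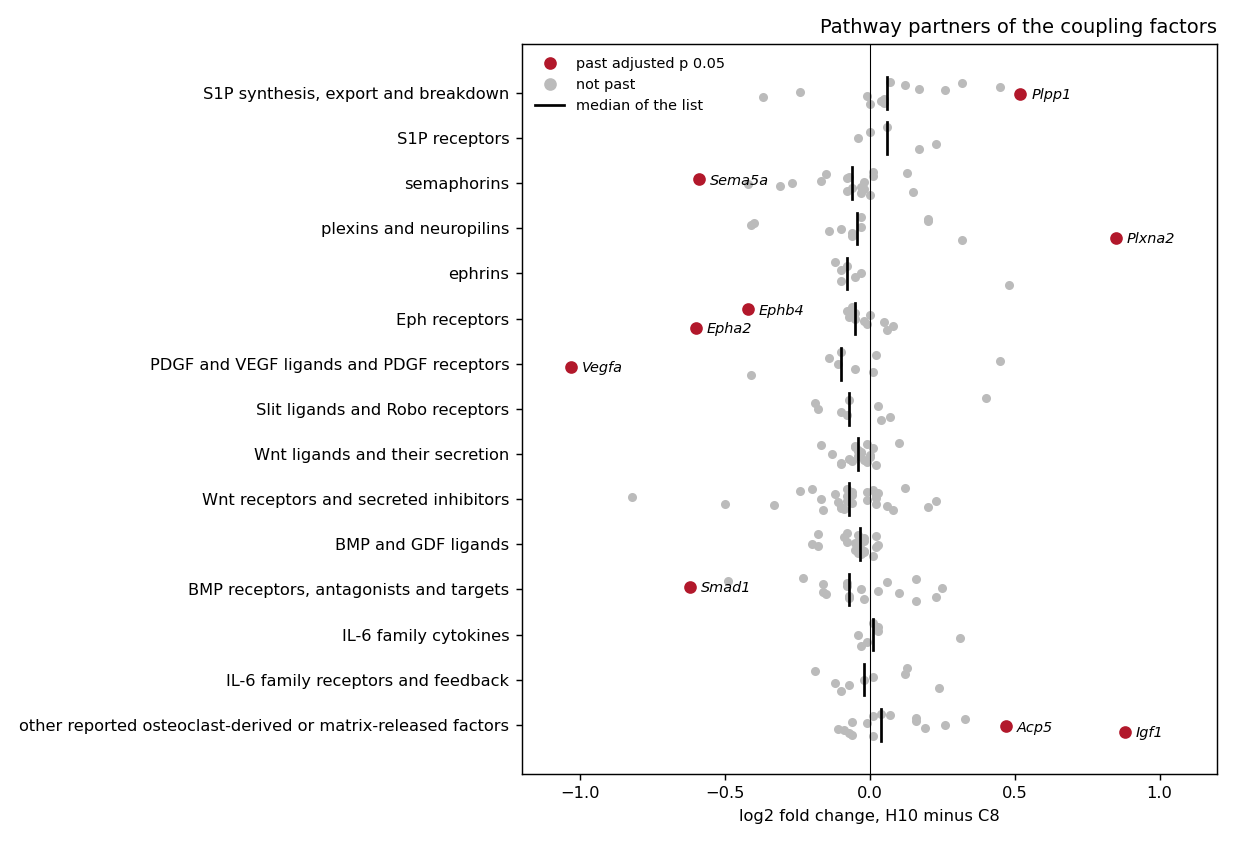
Log2 fold change, H10 minus C8, of every measured gene in each partner list, one row per list, with the list median as a black bar and the genes past an adjusted p of 0.05 in red and named. Plpp1, Plxna2, Igf1 and Acp5 lie to the right, and Sema5a, Epha2, Ephb4, Vegfa and Smad1 to the left.

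Among the other semaphorins and the semaphorin receptors, 2 genes passed, one in each direction. Plxna2, which encodes Plexin-A2, a receptor for other semaphorins, was 10.04, 9.84 and 9.93 in H10, against 9.34, 8.92 and 9 in C8 cells and rose by 0.85 (limma adjusted p = 0.0229). Of 12 plexin, neuropilin and related receptor genes it alone passed. Plxnb1, the osteoblast receptor of semaphorin 4D, showed a log2 fold change of -0.14 (adjusted p = 0.658), and Cd72, its receptor on lymphocytes, -0.03 (adjusted p = 0.932). Plxnb1 lay near the array medians, with a mean of 7.77 in H10, against 7.9 in C8 cells. Of 19 other semaphorins 0 rose and 1 fell, Sema5a, at 9.11, 9.31 and 9.17 in H10, against 9.83, 9.75 and 9.79 in C8 cells (log2 fold change -0.59, limma adjusted p = 0.0126).

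For S1P, Plpp1, a lipid phosphatase that can break down S1P outside the cell, rose among 14 genes of its synthesis, export and breakdown. It was 11.27, 11.38 and 11.36 in H10, against 10.87, 10.72 and 10.86 in C8 cells (log2 fold change 0.52, limma adjusted p = 0.0185). Of the 14 genes, 3 were higher in H10 cells and 2 lower at an unadjusted p under 0.05. Sphk2, the other sphingosine kinase, had the same mean of 10.05 in both lines. The transporter gene Spns2, which exports S1P, showed a log2 fold change of 0.05 (adjusted p = 0.933).

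For ephrin-B2, its receptor gene Ephb4 fell in H10 cells, at 7.37, 7.38 and 7.37 in H10, against 7.86, 7.66 and 7.87 in C8 cells (log2 fold change -0.42, limma adjusted p = 0.0483). Ephb4 lay under the medians of the H10 arrays. Epha2, a receptor of A-type ephrins, fell too, with 7.93, 7.91 and 7.96 in H10, against 8.67, 8.49 and 8.44 in C8 cells (log2 fold change -0.60, limma adjusted p = 0.0148). They were 2 of 13 Eph receptors measured, of which 0 rose. None of 7 other ephrin genes passed (1 was higher at an unadjusted p under 0.05), and Efnb1 showed a log2 fold change of -0.08.

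For PDGF and VEGF, Vegfa, the angiogenic growth factor, fell in H10 cells. It was 10.02, 10.27 and 10.37 in H10, against 11.54, 10.96 and 11.24 in C8 cells, a log2 fold change of -1.03 (SE 0.16, limma adjusted p = 0.0328). Pdgfa, which encodes the A chain, was 10.83, 10.87 and 10.65 in H10, against 11.29, 11.09 and 11.20 in C8 cells and did not pass (log2 fold change -0.41, limma adjusted p = 0.0863). The signs of Pdgfa and Pdgfb were opposite, neither passed, and the difference between the genes was not tested. Pdgfrb, the receptor of PDGF-BB, lay under the array medians, with a mean of 6.9 in H10, against 7 in C8 cells (log2 fold change -0.10, limma adjusted p = 0.768).

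For BMP6, the receptor genes Bmpr1a and Bmpr2 did not pass, at 0.16 (adjusted p = 0.76) and -0.07 (adjusted p = 0.914) on the log2 scale. Smad1, which carries BMP signals to the nucleus, fell, at 8.06, 8.03 and 8.17 in H10, against 8.88, 8.61 and 8.62 in C8 cells (log2 fold change -0.62, limma adjusted p = 0.0277). It was 1 of 19 BMP receptors, antagonists and targets. For the interleukin-6 family, Il6st, which encodes gp130, was 11.20, 11.17 and 11.27 in H10, against 11, 10.94 and 10.97 in C8 cells, without overlap (log2 fold change 0.24, limma adjusted p = 0.131). Lifr, the receptor chain that binds LIF, lay under the array medians, with a mean of 6.19 in H10, against 6.29 in C8 cells (log2 fold change -0.10, limma adjusted p = 0.696).

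Of 17 other reported osteoclast-derived or matrix-released factors, 2 rose and 0 fell (3 and 0 at an unadjusted p under 0.05). Igf1, the insulin-like growth factor that bone matrix stores and resorption releases, was 8.05, 7.85 and 7.76 in H10, against 6.90, 7.01 and 7.12 in C8 cells. It was 1.84-fold higher in H10 cells (log2 fold change 0.88, limma adjusted p = 0.00939). Its C8 values lay under the array medians, and with no measure of background its size is uncertain. Acp5, the tartrate-resistant acid phosphatase used to stain osteoclasts, rose by 0.47 (limma adjusted p = 0.033). It was also counted above among the osteoclast markers that rose. Tgfb1, another factor stored in matrix, showed a log2 fold change of 0.01.

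None of these 9 partner calls held in all 6 fits that leave out 1 array. Igf1 passed in 5 of the 6 fits without 1 array (adjusted p = 0.0523 without C8 replicate 2 by limma) and Sema5a in 3 of 6, without H10 replicate 1 or 2 or C8 replicate 1. Epha2 passed without C8 replicate 1 or 3, and Plpp1 without H10 replicate 1 or C8 replicate 1. Plxna2, Smad1 and Acp5 passed without C8 replicate 1 and in no other of these fits, and Vegfa and Ephb4 without C8 replicate 2 and in no other. Where a call was lost, the limma adjusted p was 0.0523 to 0.199. Sema4d, by comparison, passed in 3 of 6.

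**Figure D4:**
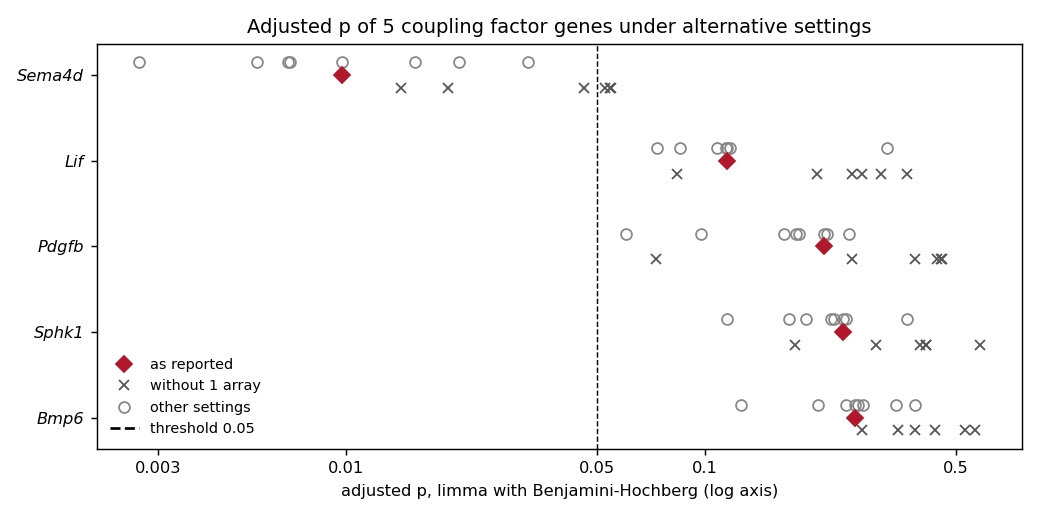
Adjusted p from limma (log axis) of the 5 coupling factor genes whose arrays did not overlap, as reported (diamonds), without 1 array (crosses) and under other settings of normalization, filter, prior and adjustment (circles); the fit with the replicate number as a block is not plotted. Sema4d crosses the dashed threshold of 0.05 to 0.0547 at most, while every value plotted for Lif, Pdgfb, Sphk1 and Bmp6 is above it.

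The genes whose pattern over the 6 arrays was nearest to that of Sema4d, by Euclidean distance after centring each gene, were Fblim1, H2-Q4 and Lims2. Fblim1, an adaptor of cell adhesion sites, read 10.31, 10.47 and 10.54 in H10, against 9.52, 9.28 and 9.47 in C8 cells, at a distance of 0.137 log2 units from Sema4d. H2-Q4, a class I histocompatibility gene with close relatives that its probes may also read, was at 0.152, and Lims2, another adhesion adaptor, at 0.173. Pearson's r over the 6 arrays, which fall into 2 lines, was 0.99 to 0.997 for the 3 genes and mostly describes the step between the lines.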

How the data were processed

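RNA of H10 and C8 cells was hybridised to 3 arrays each. The authors applied RMA to the raw intensities (background correction, equalization of the arrays, probe summary), and the deposited log2 values, with 2 decimals, were used unchanged. Affymetrix Expression Console is named in the submitters' processing notes, with the version, the annotation release and the build each not given in the sources used here. Arrays of a line correlated at 0.993 to 0.997. The number of arrays limits the precision.

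Of the features annotated to 1 symbol (21781 of 35545), 1 per symbol was counted, which gave 19930 genes. No member had a feature shared with another symbol. The comparison used limma 3.58.1 under R 4.3.3 (lmFit and eBayes, 4 residual and 2.57 prior degrees of freedom), without a filter. Intervals are 95% intervals from that fit. Figures were drawn with matplotlib 3.10.9.

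The members and all lists were chosen with earlier results of these data known. Named genes are the 10 members, list genes past the test (at most 4 in each direction) and up to 2 chief partners of a member that did not pass. Also named are up to 4 markers of each list, every osteoclast marker that did not pass, and the 3 genes nearest to a member that passed. Alternatives were leaving out each array, median centring, quantile normalization, a block for the replicate number, testing only features brighter than the median of the table on 3 or more arrays, a robust prior with an intensity trend, averaging the features of a gene, adjusting over 1 feature per gene and an adjusted p under 0.01. Leaving out both replicate 1 arrays, the farthest from the others on principal component 2, was added after seeing the data. Promoter windows are from RefSeq (GRCm38.p6).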

Additional observations from a re-analysis of the deposited data

How the results depend on the processing

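Over 15 alternatives, 145 of 147 log2 fold changes of the 10 genes kept their sign and 140 also their side of the threshold. Many of the 147 signs could not have changed, so the count of 145 overstates how far they were tried. Changes to the variance model, the p-value correction, the cutoff or the choice of tested features left every fold change as it was. The block for the replicate number did too, and combining features could move Sema4d alone. Efnb2, at -0.01, was -0.04 to 0.03 without 1 array, with the sign reversed at 0.01 without H10 replicate 2 and 0.03 without C8 replicate 2. The count of members that rose, 1, was 0 to 1 without 1 array. The replicate numbers were not shown to pair the samples. The deviations of same-numbered arrays from their line means correlated at 0.17, 0.00 and -0.12. The replicate 1 arrays correlated best with each other, but H10 replicate 2 did so with C8 replicate 3 (0.14), and H10 replicate 3 with C8 replicate 2 (0.23). On principal component 2 the replicate 1 arrays lay on the same side (17.6 in H10 and 29.3 in C8 cells, against -17.8 to -7.69 for the others). Whether they share more than the number was not tested. With the replicate number as a block, the member that passed was Pdgfb (adjusted p = 0.0324 from limma; 0.0324 to 0.458 over its alternatives) and not Sema4d (adjusted p = 0.0562; 0.00265 to 0.0562 over its alternatives), 290 features rose and 98 fell, and 1 partner gene rose and 0 fell. Without 1 array, 183 to 448 features rose (484 with all arrays) and 53 to 166 fell (269 with all arrays), and 0 to 6 partner genes rose and 0 to 3 fell. Without both replicate 1 arrays, 1 member rose, Sema4d (adjusted p = 0.0206), 115 features fell, and 2 partner genes rose and 0 fell. At an adjusted p under 0.01, 201 features rose and 67 fell, and 1 partner gene rose and 0 fell. Testing only the brighter features gave 521 that fell, and left out Efnb2, Lif and Ctf1, and the partner gene Ephb4 with its call. Causes of the other shifts were not tested. Background was not measured, so signal over background is unknown.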

Other observations

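Pdgfb varied within each line in the same order of arrays, replicate 1 highest, then 3, then 2, in H10 and in C8 cells. Of 12 osteoclast markers, 2 had that order in both lines: Ocstamp, a membrane protein needed for fusion, at 12.70, 11.78 and 12.18 in H10, against 10.42, 8.96 and 9.21 in C8 cells, and Atp6v0d2, a proton pump subunit, at 13.70, 13.50 and 13.67 in H10, against 12.40, 11.71 and 12.20 in C8 cells. Over all 19930 genes, 4.83% had it. This comparison was chosen after the values were seen, and no cause was tested.

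Vegfc, a growth factor of lymphatic vessels, was 10.34, 10.02 and 10.12 in H10, against 9.84, 9.65 and 9.63 in C8 cells, without overlap (log2 fold change 0.45, limma adjusted p = 0.111), while Vegfa was lower in H10 cells. Vegfc was singled out after its values were seen. The difference between these genes was not tested.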
